A study of Rattus norvegicus with 35 samples.

Results

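Microtubule motors and their tracks were followed in the rat retina after optic nerve injury through 67 genes, of 14217 genes measured by a probe set with a single gene symbol. The members were chosen by symbol and not by their values. They are the kinesin heavy chains (Kif), kinesin light chains (Klc), dynein chains (Dync, Dynl), dynactin subunits (Dctn), alpha, beta and gamma tubulins (Tuba, Tubb, Tubg), and the microtubule-associated proteins Map1a, Map1b, Map2 and Mapt. Where a gene had several probe sets, the one brightest on average over all arrays stood for it. In all, 108 probe sets carried a member's symbol alone, and 26 members had more than 1.

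Microtubules are polar tubes of alpha and beta tubulin. Most kinesins carry cargo toward the plus end, which in an axon points away from the cell body, and cytoplasmic dynein with its cofactor dynactin carries cargo back. Retinal ganglion cells send the long axons of the optic nerve and depend on this traffic, photoreceptors use kinesin-2 to supply their outer segments through a cilium, and a separate set of kinesins works on the spindle of dividing cells.

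Retinas of adult female Sprague-Dawley rats were taken without injury (naïve, 5 arrays) or after intraorbital nerve transection (IONT) or intraorbital nerve crush (IONC) of the left optic nerve. The IONT retinas were taken at 12 h, 48 h and 7 d (3 arrays each) and at 24 h, 3 d and 15 d (2 arrays each), and the IONC retinas at each of these times except 15 d (3 arrays each). Each of the 35 Affymetrix RAE230.2 arrays was hybridized with a separate RNA pool from 4 retinas of different animals, and no sham-operated group was analysed here. Values are log2 signals, so that a difference of 1 is a 2-fold change.

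The arrays fell into 2 sets by the signal difference between the 3′ and 5′ probe sets of β-actin, which was 1.53 to 1.93 in 27 arrays and 2.61 to 3.65 in 8. The second set held naïve replicates 4 and 5 and all IONT arrays of 24 h, 3 d and 15 d. Each injured group was therefore compared with the naïve arrays of its own set. Between the naïve arrays of the 2 sets, 3 members differed past the threshold (Dync1li1, Dync2h1 and Mapt), beside 5.18% of all genes, and each change below was taken within a set. Some markers of retina were bright, with a mean log2 signal of 14.95 for the rod gene Sag and 12.28 for the amacrine cell gene Gad1. Others were dim, such as Pou4f1 of ganglion cells (3.04) and Kcnj10 of Müller glia (2.27). Lens markers gave signal too, with 14.39 for Cryaa and 0 of 6 means under 4. At IONT 15 d 3 of these 6 were lower past the threshold (median -2.87). The source of the lens signal was not tested. IONC 12 h replicate 2 stood apart from all other arrays, with a median correlation of 0.871 against 0.962 to 0.992 for the other 34. Results are given with this array and, where it changes them, without it.

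Few of the 67 genes were called changed in whole retina with all arrays. A gene was called changed at a limma adjusted p under 0.01 over all 31042 probe sets, log odds (B) over 0 and at least a 1.2-fold difference. By this rule 5 members (7.46%) were called in at least 1 of the 11 injured groups, beside 9.04% of all genes. They were the mitotic kinesins Kif11, Kif22 and Kif20a, which were higher, the kinesin-2 motor Kif3b, which was lower, and Map1b, which was higher. Without IONC 12 h replicate 2, all 9 of these gene and group pairs were still called, and the number of members called rose to 20 (29.9%), beside 21.4% of all genes. That array adds to the spread that all comparisons share. Without it the share of all genes called was 3.78%, 2.24%, 7%, 3.32%, 6.02% and 4.51% at the IONT times in order, and 6.63%, 4.72%, 6.18%, 2.87% and 2.98% at the IONC times. Between the lesions it was then 1.35%, 0.717% and 0.309% at 12 h, 48 h and 7 d, and for the comparisons in time 6.86% (IONT 7 d minus 12 h), 5.67% (IONT 15 d minus 24 h) and 0.197% (IONC 7 d minus 24 h).

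By group, 2 members were called higher at IONT 12 h, where 1.29% of all genes were called and 0.795% were called higher. None was called at IONT 24 h (0.499% of all genes). At IONT 48 h 2 were higher and 1 lower, beside 2.64% of all genes called, 1.06% higher and 1.58% lower. At IONT 3 d 1 was higher, beside 0.795% called and 0.605% higher. No member was called after IONT at 7 d (1.2%) or 15 d (1.81%). After IONC 1 member was lower at 12 h (5.22% of all genes called, 4% lower), 24 h (1.04% called, 0.654% lower) and 48 h (1.54% called, 0.886% lower), and none was called at 3 d (0.394%) or 7 d (0.689%). In the groups with 0 limma calls, an unadjusted p under 0.05 was reached by 8 members at IONT 24 h (11.9%, beside 8.86% of all genes), 11 at IONT 7 d (16.4%, beside 11.8%) and 12 at IONT 15 d (17.9%, beside 13.1%). At IONC 3 d it was 4 (5.97%, beside 9.12%) and at IONC 7 d 7 (10.4%, beside 8.22%), so these shares lay near those of all genes. The median change of the 67 lay between -0.04 and 0.03 in 10 of the groups, where that of all genes lay between -0.01 and 0.05. At IONC 12 h it was -0.32, beside -0.08 for all genes, and both were 0.01 without replicate 2. The map of changes shows the few strong rows against a pale field.

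**Figure D1:**
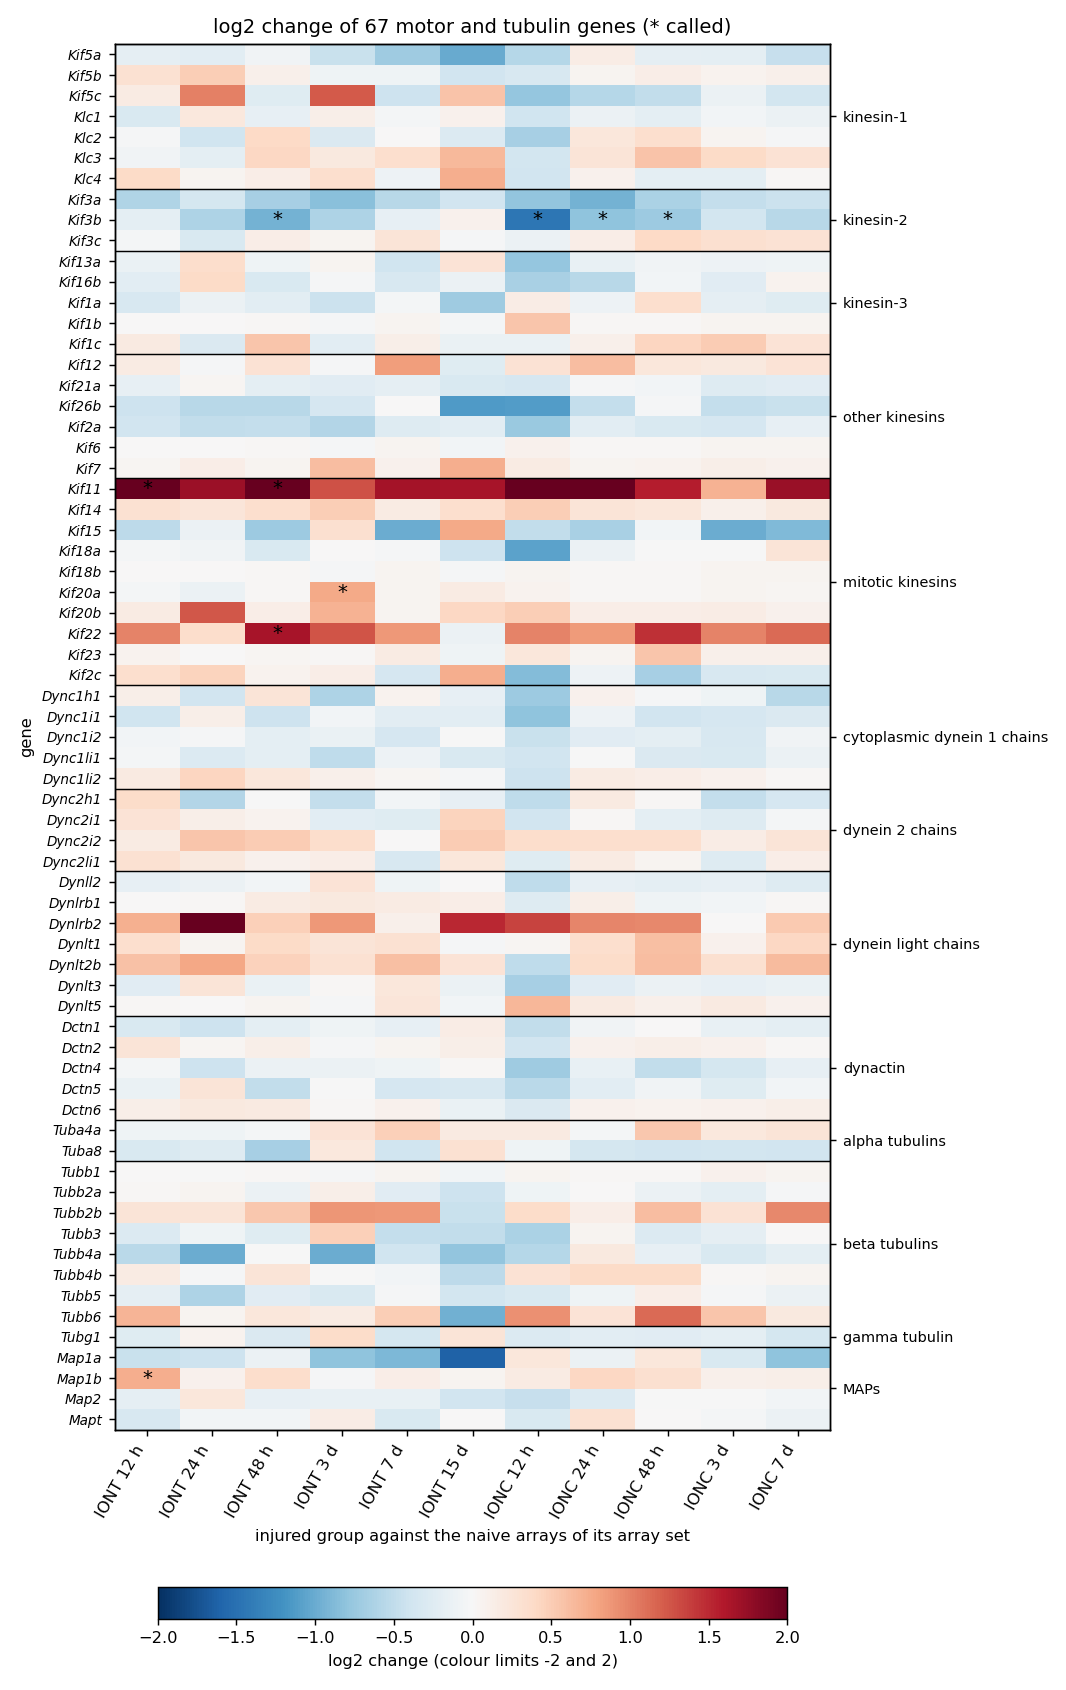
Each row is one of the 67 genes, grouped by role, and each column an injured group against the naïve arrays of its own set. Colour gives the log2 change, limited to -2 and 2, and an asterisk marks the 9 calls, which sit in the rows of Kif3b, Kif11, Kif20a, Kif22 and Map1b.

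Kif11 changed most. It encodes the bipolar kinesin that slides spindle microtubules apart, and it is also present in neurons, where it restrains microtubule sliding. The naïve arrays of the first set read 2.20, 1.99 and 1.99, near the low end of the signals (the 10th percentile of the naïve arrays was 2.11 to 2.13). IONT 12 h read 7.67, 7.91 and 7.47, and IONT 48 h read 6.48, 7.14 and 6.98. All 6 of these injured arrays lay far above the naïve ones. The change was 5.62 (SE 0.71, limma adjusted p = 2.08e-05) at 12 h and 4.81 (SE 0.71, adjusted p = 0.000105) at 48 h. Since the naïve signal was so low, the size of these changes depends on the floor that background correction leaves.

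By IONT 7 d Kif11 read 3.16, 4.09 and 3.93, lower than at 12 h by a called difference of -3.96 (SE 0.71, limma adjusted p = 0.00146), with 1.73% of all genes called between these times and 1.26% called lower. This call was lost when IONT 12 h replicate 2 or IONT 7 d replicate 1 was left out. In the second set the naïve arrays read 3.00 and 2.99, and the IONT arrays read 4.49 and 4.92 at 24 h, 4.56 and 3.96 at 3 d, and 5.08 and 4.19 at 15 d. Every one of those IONT arrays lay above both naïve arrays, yet the changes of 1.71, 1.27 and 1.65 did not pass the test.

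After IONC the Kif11 arrays spread widely. They read 6.75, 2.56 and 5.06 at 12 h, of which 2.56 is the array that stood apart, and 4.64, 5.25 and 4.46 at 24 h. The changes were 2.73 (limma adjusted p = 0.0139) and 2.72 (adjusted p = 0.045), neither called. Once that array was left out both were called, at 3.85 (adjusted p = 0.000179) and 2.72 (adjusted p = 0.00284). At 48 h the 3 IONC arrays read 4.93, 3.23 and 2.73, below all 3 IONT arrays of that time.

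The lesions were compared directly at 12 h, 48 h and 7 d, the times at which both lie in the first set. For Kif11 IONC was lower than IONT by a difference of -2.89 at 12 h (95% interval -4.35 to -1.44, limma adjusted p = 0.0192) and -3.24 at 48 h (-4.70 to -1.78, adjusted p = 0.0405), not called, and at 7 d the difference was 0.05 (-1.41 to 1.51). Without IONC 12 h replicate 2 the 48 h difference was called (adjusted p = 0.00237), while that at 12 h shrank to -1.78 (adjusted p = 0.153). A second Kif11 probe set read 2.68, 2.65 and 2.05 in naïve, 7.02, 6.89 and 6.04 at IONT 12 h, and 5.82, 5.81 and 5.86 at IONT 48 h. Its changes of 4.19, 3.37 and, at IONC 12 h, 1.86 (SE 0.39 each) were all called, as were its differences between the lesions of -2.33 at 12 h and -2.74 at 48 h. Of these, the difference at 12 h was not called without IONC 12 h replicate 2, at -1.92 (limma adjusted p = 0.01).

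Kif22, a kinesin that binds chromosome arms, was called at IONT 48 h. The naïve arrays read 4.22, 3.85 and 3.68 and the IONT 48 h arrays 5.37, 5.18 and 6.13, without overlap, for a change of 1.65 (SE 0.36, limma adjusted p = 0.00628). At IONC 48 h it read 5.81, 4.66 and 5.67, also above all naïve arrays of the set, with a change of 1.46 (SE 0.36, adjusted p = 0.0213) that was not called. The difference between the lesions was -0.18 (95% interval -0.92 to 0.55). The IONT 48 h call was lost when any of 5 single arrays was left out, namely naïve replicates 1, 2 or 3 or IONT 48 h replicates 1 or 3, with changes between 1.36 and 1.84 over all alternatives.

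Kif20a, which acts in the last step of cell division, was called at IONT 3 d. The 2 naïve arrays read 2.37 and 2.63 and the 2 IONT arrays 3.34 and 3.17, a change of 0.76 (SE 0.10, limma adjusted p = 3.82e-05). All of these signals lie near the floor. The injured groups of the first set, which does not hold IONT 3 d, had means between 2.33 and 2.43. In the second set, IONT 15 d lay above 24 h by 0.49 when IONT 15 d replicate 2 was left out.

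**Figure D2:**
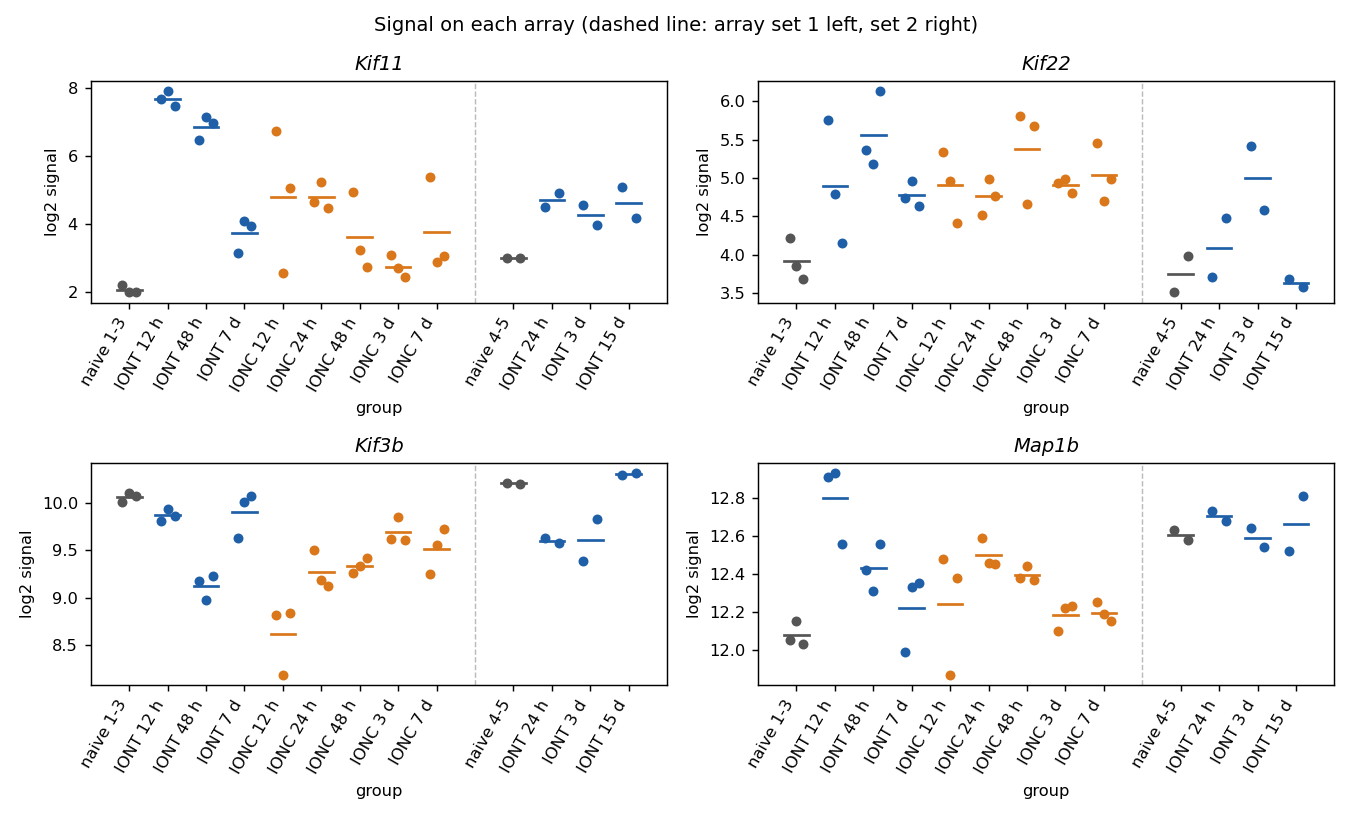
Log2 signal on each of the 35 arrays (points) and group means (bars) for Kif11, Kif22, Kif3b and Map1b, with naïve in grey, IONT in blue and IONC in orange, and a dashed line between the 2 array sets. Kif11 stands above 6 only on the 6 IONT arrays of 12 h and 48 h and on IONC 12 h replicate 1, and Kif3b is lowest on the IONC 12 h arrays.

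Most mitotic kinesins gave no call. Of the 10 measured, 3 were called and 6 had a mean signal under 4 over all arrays. Kif18a ranged over the 11 groups from -1.07 to 0.26, Kif15 from -1.0 to 0.75 and Kif2c from -0.87 to 0.73, none called. Leaving out IONC 12 h replicate 2, Kif20b was called higher at IONT 24 h (1.24, limma adjusted p = 0.0079) from a mean signal near the floor (2.93). Kif2c was then lower after IONC than after IONT at 12 h (-1.54, adjusted p = 0.00662). A second Kif2c probe set was called there with all arrays (-2.29, adjusted p = 0.00797) and not without that array (-1.34, adjusted p = 0.0299).

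Markers of dividing cells gave no call. Of the 9 measured, among them Mki67 and Top2a, 0 passed in any group and 7 had a mean under 4. Their summed signal was 5.97 to 6.08 in the naïve arrays of the first set and 5.97 to 6.12 at IONT 12 h, which overlapped. It lay above naïve at IONT 48 h (6.25 to 6.51) and 7 d (6.15 to 6.30), and in every IONC group, from 6.41 to 7.20 at 12 h and 6.27 to 8.42 at 48 h. In the second set it was 6.89 to 7.55 at IONT 24 h against 6.20 to 6.27 in naïve, and it overlapped naïve at 3 d (5.96 to 7.76) and 15 d (5.91 to 6.26). The part of dividing cells in the Kif11 change was not tested.

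The transport kinesins gave 1 called gene. Kif3b, a motor subunit of kinesin-2 that pairs with Kif3a, was lower in both lesions. Naïve arrays of the first set read 10.01, 10.11 and 10.08. IONC 12 h read 8.81, 8.18 and 8.84, and IONT 12 h read 9.81, 9.94 and 9.87. All 3 IONC arrays lay below every naïve and IONT array named here, and the IONC change was -1.45 (SE 0.15, limma adjusted p = 1.02e-06). The IONT change at 12 h was -0.19 (95% interval -0.51 to 0.13), so the lesions differed at 12 h by -1.26 (SE 0.15, adjusted p = 5.22e-05), with 1.62% of all genes called in that comparison and 1.46% lower. Without IONC 12 h replicate 2 the IONC change was -1.24 and the difference -1.05, both called.

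Kif3b reached its lowest IONT level later. IONT 48 h read 9.18, 8.97 and 9.23, a change of -0.94 (SE 0.15, limma adjusted p = 0.000407), while IONC 24 h read 9.50, 9.19 and 9.12 and IONC 48 h read 9.26, 9.34 and 9.42. These arrays all lay below every naïve array, and the IONC changes were -0.80 (adjusted p = 0.00443) and -0.73 (adjusted p = 0.00769). At 48 h the lesions differed by 0.21 (95% interval -0.11 to 0.53), with 0.148% of all genes called. At 7 d IONT read 9.63, 10.01 and 10.08, which overlapped naïve, and IONC read 9.25, 9.56 and 9.73, which did not. The IONC change of -0.55 at 7 d was called only without IONC 12 h replicate 2 (adjusted p = 0.00989). The difference between the lesions at 7 d was -0.39 (limma adjusted p = 1), and 0.0563% of all genes were called there.

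In the second set Kif3b read 10.22 and 10.21 in naïve, 9.63 and 9.58 at IONT 24 h, 9.39 and 9.83 at 3 d, and 10.30 and 10.32 at 15 d. The 24 h and 3 d arrays lay below both naïve arrays and the 15 d arrays above them. A second probe set of Kif3b gave -2.52 at IONC 12 h (SE 0.45, limma adjusted p = 0.000629) and -1.57 at IONT 48 h (adjusted p = 0.0523). With IONC 12 h replicate 2 left out it was -1.78 at IONC 12 h, and it was called at IONT 24 h (-2.08, adjusted p = 0.00341), IONT 48 h (adjusted p = 0.00321), IONC 24 h (-1.51) and IONC 48 h (-1.54) as well. Its difference between the lesions at 12 h was -2.16 (adjusted p = 0.00676), and -1.42 without that array (adjusted p = 0.0466), no longer called. The call at IONC 24 h was lost in 8 of 45 alternative settings and that at IONC 48 h in 21, where adjusted p reached 0.0361 and 0.0523. The calls at IONT 48 h and IONC 12 h held in all 45, of which 35 left out 1 array each, mostly from other groups.

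Its partner Kif3a was not called. The naïve arrays read 7.24, 7.56 and 7.37, and IONC 24 h read 7.05, 5.99 and 6.31, a change of -0.94 (SE 0.25, limma adjusted p = 0.0528) that was called only without IONC 12 h replicate 2 (adjusted p = 0.00683). Its change was below 0 in all 11 groups, from -0.94 to -0.35. Kif3c, the neuronal alternative to Kif3b, ranged from -0.30 to 0.40, and all 11 of its 95% intervals lay within 1 log2 unit of 0. A second Kif3c probe set gave -1.04 at IONT 24 h (adjusted p = 0.0161), called only without that array (adjusted p = 0.0088), and was higher at IONT 15 d than at 24 h by 1.06 (adjusted p = 0.00803).

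Among the kinesin-1 genes, the main motor of fast outward axonal transport, none of 7 was called. Kif5a, the heavy chain found in neurons, had its lowest values late. In the first set naïve read 8.89, 8.87 and 8.80, IONT 7 d read 8.19, 8.11 and 8.14, and IONC 7 d read 8.53, 8.30 and 8.36. Both 7 d groups lay below naïve without overlap, with changes of -0.71 (SE 0.26, limma adjusted p = 0.213) and -0.46 (SE 0.26, adjusted p = 0.863). In the second set naïve read 9.70 and 9.51 and IONT 15 d read 8.55 and 8.65, a change of -1.01 (SE 0.31, adjusted p = 0.0804). Kif5a read 7.23 on the IONC 12 h array that stood apart, the lowest value of all. Without that array IONT 7 d (adjusted p = 0.00133) and IONT 15 d (adjusted p = 0.000311) were called, as was the light chain Klc4, higher at IONT 15 d by 0.72 (adjusted p = 0.00121).

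The heavy chain Kif5b, used in most cell types, ranged from -0.39 to 0.49, and the light chain Klc1, which binds cargo, from -0.40 to 0.21. Kif5c, another neuronal heavy chain, gave no single answer, because its probe sets disagreed. Its brightest probe set changed by 1.00, 1.23 and 0.57 at IONT 24 h, 3 d and 15 d, and another by -0.91, -1.84 and -1.37, none called. Of the kinesin-3 genes, some of which carry synaptic vesicle precursors, 0 of 5 were called. Kif1a ranged from -0.71 to 0.33. The only probe set of Kif1b with a single symbol had a mean of 2.13, near the floor, and the brighter probe sets that the annotation gives to Kif1b together with other genes were not used. Kif21a, a kinesin that slows microtubule growth, ranged from -0.34 to 0.04, with all 11 intervals within 1 log2 unit. Kif2a, a kinesin that takes microtubules apart, gave -0.75 at IONC 12 h (limma adjusted p = 0.0107), and its other 2 probe sets were called there (-1.05 and -0.83). When IONC 12 h replicate 2 was left out these changes were -0.37, -0.54 and -0.52, of which only the last was called, and Kif2a was then called lower at IONT 48 h (-0.47) and 3 d (-0.59). Kif7, dim at a mean of 2.98, was called at IONT 15 d without that array (0.72).

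Dynein and dynactin gave 0 calls among 21 genes over the 11 groups. These 21 include 4 chains of dynein 2 beside those of cytoplasmic dynein 1. The 5 chains of cytoplasmic dynein 1 ranged from -0.81 to 0.43 and the 5 dynactin subunits from -0.71 to 0.26. Outside IONC 12 h these ranges narrowed to -0.61 to 0.43 and -0.49 to 0.26. Dync1h1, the dynein motor subunit, changed by -0.73 at IONC 12 h (SE 0.29, limma adjusted p = 0.0848) and by -0.11 without the array that stood apart. Dync1i1, an intermediate chain of neurons, changed there by -0.81 (adjusted p = 0.0242), and by -0.39 without it. Dctn1, the subunit that links dynactin to the microtubule, ranged from -0.49 to 0.15, and all 11 of its 95% intervals lay within 1 log2 unit.

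Without that array 5 of the 21 genes were called in at least 1 injured group, beside 21.4% of all genes. The light chain Dynlt2b was higher at 12 h, 24 h and 7 d after IONT and 12 h, 48 h and 7 d after IONC, by 0.54 to 0.77 (limma adjusted p = 0.00109 to 0.00691). Dynlrb2, another light chain with a mean signal of 3.44, was higher at IONT 24 h by 2.05 (adjusted p = 0.00297), a change whose adjusted p was 0.0263 with all arrays. Dynlt1 was higher at IONC 12 h by 0.79, Dctn5 lower at IONT 48 h (-0.49) and the intermediate chain Dync1i2 lower at IONT 7 d (-0.33) and IONC 3 d (-0.32).

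Tubulins were among the brightest members and gave no call in 11 genes. A further fit that left out IONC 12 h replicate 2 called 3 in at least 1 injured group, beside 21.4% of all genes. These were Tubb4b at IONC 12 h (0.66, limma adjusted p = 0.00361), Tubb5 at IONT 24 h (-0.61, adjusted p = 0.00437) and Tubb2b. The most abundant alpha tubulin signal, a mean of 13.6, came from a probe set shared by Tuba1a, Tuba1b and Tuba1c, and it changed by 0.03 to 0.43, also with no call. Tubb2a, with a mean of 12.47, ranged from -0.42 to 0.11, all 11 intervals within 1 log2 unit. Tubb3, the neuronal beta tubulin often used to stain ganglion cells, read 8.62, 8.50 and 8.70 in naïve and 8.19, 7.98 and 8.19 at IONT 7 d. These did not overlap, but the change of -0.48 (95% interval -1.11 to 0.14) was not called. At IONC 7 d it read 8.89, 8.53 and 8.40, a change of 0.00 (-0.62 to 0.63).

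Tubb2b, a beta tubulin of growing neurons, had changes above 0 in 10 of the 11 groups, none of them called. It read 8.21, 8.14 and 7.97 in naïve, 9.28, 8.76 and 8.89 at IONT 7 d and 9.69, 8.80 and 8.70 at IONC 7 d, so that all 6 injured arrays lay above naïve. The changes were 0.87 (SE 0.34, limma adjusted p = 0.281) and 0.96 (SE 0.34, adjusted p = 0.289). Without IONC 12 h replicate 2, where it read 7.16 against 9.05 and 9.22 on the other IONC 12 h arrays, Tubb2b was called at IONC 12 h (1.02, adjusted p = 0.00572) and IONC 7 d (0.96, adjusted p = 0.00774). At IONT 15 d it read 7.51 and 7.33 against 7.87 and 7.85 in naïve, a change of -0.44 (95% interval -1.30 to 0.42).

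**Figure D3:**
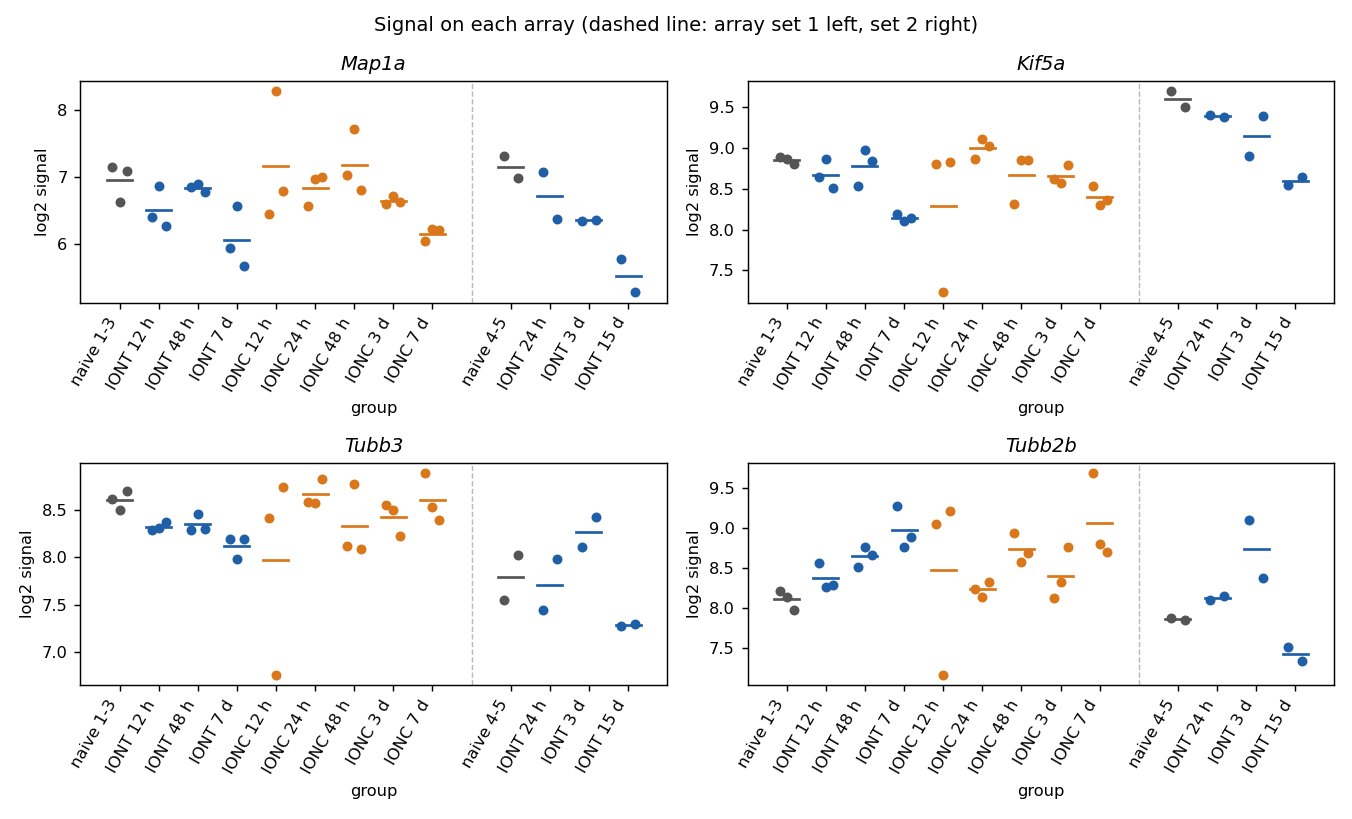
Log2 signal on each array (points) and group means (bars) for Map1a, Kif5a, Tubb3 and Tubb2b, coloured and divided as in the plot of called genes. Kif5a at IONT 7 d and 15 d and Map1a at IONT 15 d lie below all naïve arrays of their sets, and the single far IONC 12 h point in each panel is replicate 2.

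Among the microtubule-associated proteins, 1 of 4 was called. Map1b, which is prominent in growing axons, read 12.05, 12.15 and 12.03 in naïve and 12.91, 12.93 and 12.56 at IONT 12 h. The groups did not overlap, and the change was 0.72 (SE 0.12, limma adjusted p = 0.000893). Its other 2 probe sets gave 0.73 and 0.87 at IONT 12 h, not called. The call was lost against all 5 naïve arrays, with the mean of its probe sets, and without IONT 12 h replicate 2, and adjusted p then reached 0.0445.

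By IONT 7 d Map1b read 11.99, 12.33 and 12.35, a difference from 12 h of -0.58 (SE 0.12, limma adjusted p = 0.00735) that was lost in 17 of 45 alternative settings. At IONC 12 h Map1b read 12.48, 11.87 and 12.38, and at IONC 24 h 12.59, 12.46 and 12.45. The IONC 24 h arrays all lay above naïve, with a change of 0.42 (adjusted p = 0.091) that was called without IONC 12 h replicate 2 (adjusted p = 0.00636).

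Map1a, the relative of Map1b that prevails in mature neurons, had its lowest values late after injury. Naïve arrays of the second set read 7.31 and 6.98, and IONT 15 d read 5.77 and 5.27, a change of -1.62 (SE 0.40, limma adjusted p = 0.0204). In the first set naïve read 7.15, 6.62 and 7.09, IONT 7 d read 5.94, 6.57 and 5.67, and IONC 7 d read 6.04, 6.22 and 6.20. Both 7 d groups lay below naïve, with changes of -0.90 (adjusted p = 0.223) and -0.80 (adjusted p = 0.464). Map1a read 8.29 on IONC 12 h replicate 2, and without that array the change at IONT 15 d was called (adjusted p = 0.000823).

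Map2, a protein of dendrites, depended on the probe set. The brighter one had a mean of 12.03 and ranged from -0.46 to 0.22, all 11 intervals within 1 log2 unit. The other read 9.57, 9.70 and 9.70 in naïve, 7.79, 6.74 and 7.99 at IONC 12 h, and 6.64, 7.93 and 8.73 at IONC 48 h. Its changes of -2.15 (limma adjusted p = 0.00025) and -1.89 (adjusted p = 0.00238) were both called, and so they were without IONC 12 h replicate 2. At IONC 24 h, between these times, it read 9.23, 8.79 and 9.21. Mapt, the tau protein of axons, ranged from -0.32 to 0.30.

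Tubb5, a widely expressed beta tubulin chosen here after its values were seen, split in the same manner. The brighter probe set read 11.93, 11.93 and 11.99 in naïve and 12.30, 12.07 and 11.87 at IONC 48 h, and the dimmer one read 9.03, 8.74 and 8.62 and then 10.46, 9.78 and 9.52. The changes were 0.13 (SE 0.17) and 1.12 (SE 0.32, limma adjusted p = 0.0556), neither called. The second was called without IONC 12 h replicate 2 (adjusted p = 0.00413). At IONT 48 h they were -0.23 and 0.66. The files do not give which transcripts each probe set reaches, so the source of these disagreements was not tested.

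**Figure D4:**
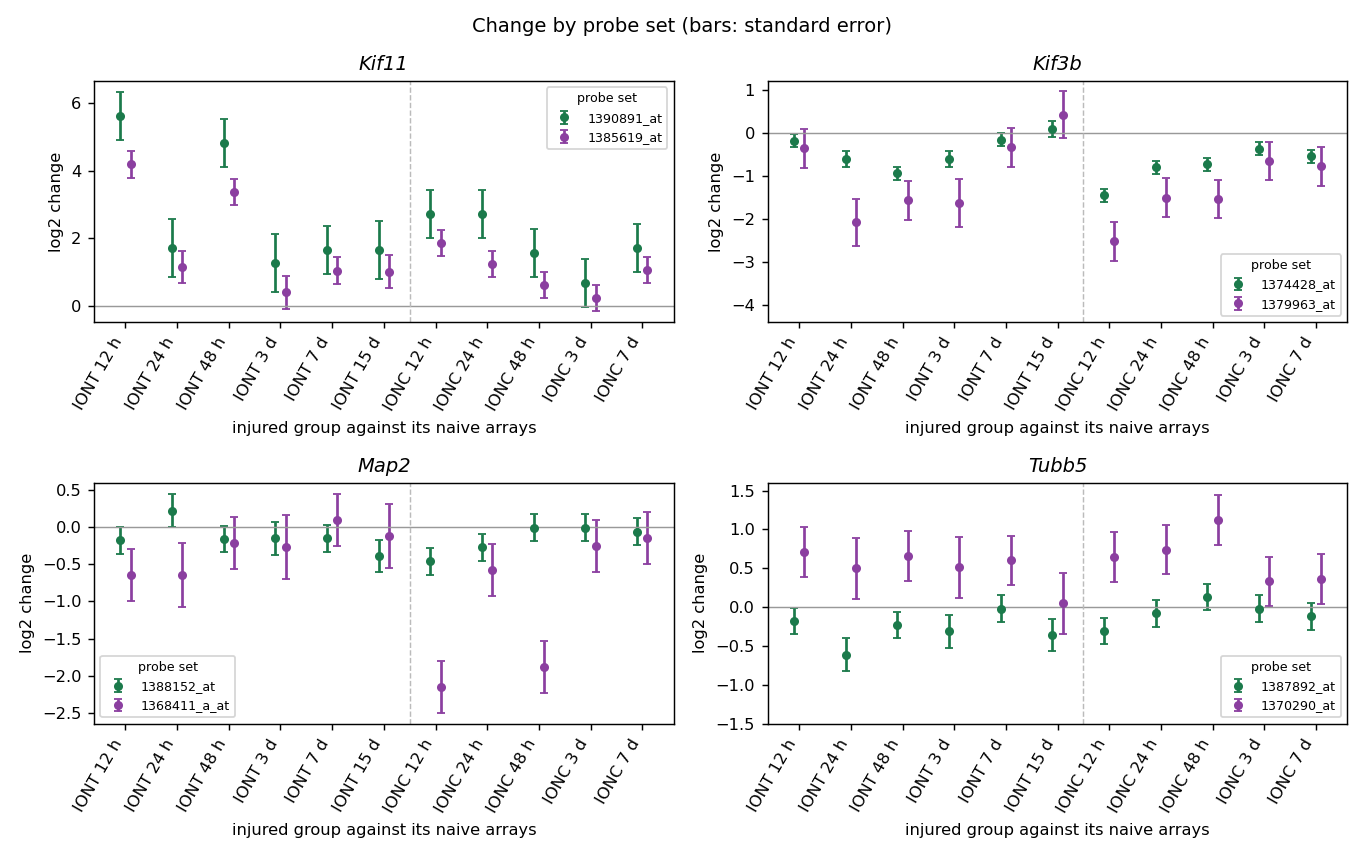
Log2 change (points) with standard error (bars) in each injured group for the 2 probe sets of Kif11, Kif3b, Map2 and Tubb5, the brighter probe set in green. Those of Kif11 and Kif3b move together, those of Map2 part at IONC 12 h and 48 h, and those of Tubb5 lie on opposite sides of 0 in most groups.

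Of the changes in time within a lesion and set, only those of Kif11 and Map1b were called among the 67 with all arrays. Between 24 h and 7 d after IONC, 0 members were called (0.113% of all genes) and 6 (8.96%) had an unadjusted limma p under 0.05, beside 3.44% of all genes. Between 24 h and 15 d after IONT, 0 were called (1.89%) and 15 (22.4%) had an unadjusted p under 0.05, beside 15.5% of all genes. The members called there were 7 without IONC 12 h replicate 2, beside 5.67% of all genes. Among them were Kif3b higher by 0.70 (adjusted p = 0.00376) and Kif5a lower by a difference of -0.80 (adjusted p = 0.00245). The second Kif3b probe set was called there with all arrays, higher by 2.50 (limma adjusted p = 0.00803). For IONT 7 d minus 12 h 5 members were called without that array, beside 6.86% of all genes. They were Kif11, Map1b, Dync2li1 (-0.63), Dynlt3 (0.45) and Klc4 (-0.48). Over the 11 injured groups, 27 of the 67 members had every 95% interval within 1 log2 unit of 0. Of these, 6 had a mean signal under 4, where changes are compressed, so their intervals set no bound. For the other 21 each interval taken singly bounds the change of that probe set to under 2-fold, and 1 of them, Map2, had another probe set that was called.

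The late changes of Kif5a and Map1a, not called with all arrays, came with larger ones in most ganglion cell markers. Of 9 such markers, 7 were called lower at IONT 7 d, IONT 15 d and IONC 7 d, and 0 at 12 h or 24 h after either lesion. Nefh, a neurofilament subunit, changed by -4.80 at IONT 7 d and -4.44 at IONT 15 d, and Slc17a6, a glutamate transporter of ganglion cells, by -4.13 and -6.38. At the same times Kif5a changed by -0.71 and -1.01 and Map1a by -0.90 and -1.62. Not all markers fell so far. At IONT 15 d Thy1 changed by -1.88, and Pou4f1 (-0.35) and Isl1 (0.34) were not called. In whole retina, fewer ganglion cells and less RNA per ganglion cell cannot be told apart. At IONC 12 h, where Kif3b was lowest, the median change of these markers was -0.67 with 0 called, and the summed signal ranged from 12.22 to 13.26 against 13.52 to 13.56 in naïve. Without IONC 12 h replicate 2 that median was -0.35, again with 0 called.

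Markers of photoreceptors were also lower where Kif3b was lowest. At IONC 12 h 4 of 6 rod markers were called lower (median -0.72, summed signal 16.04 to 16.32 against 16.72 to 16.74 in naïve), and 2 of 5 cone markers (median -0.88, 9.29 to 10.24 against 10.93 to 11.13). At IONT 48 h 3 rod markers (median -0.40, summed signal 16.30 to 16.41) and 1 cone marker (median -0.56, 10.02 to 10.10) were lower. In both groups 4 rod and 2 cone markers were lower without IONC 12 h replicate 2, with medians of -0.64 and -0.77 at IONC 12 h. The other groups did not all follow Kif3b. With all arrays, 2 rod markers and 1 cone marker were called lower at IONT 12 h, where Kif3b was not called. At IONC 24 h and 48 h, where Kif3b was called lower, 1 rod marker and 0 cone markers were lower in each group. Of the other neurons and glia, 1 of 4 bipolar and 2 of 6 Müller glia markers were lower at IONC 12 h, and 0 of 7 amacrine and 0 of 3 horizontal cell markers. Other glia moved up there. Called higher were 1 of 4 astrocyte markers, Gfap (4.26), and 2 of 8 microglia and macrophage markers (median of the 8, 1.43). Without replicate 2, 0 bipolar markers were lower there, and 1 Müller glia marker was lower and 1 higher. The astrocyte count was then again 1 higher, and that of microglia and macrophages 4 higher (median 1.78). The part of these cells in the Kif3b change was not tested.

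**Figure D5:**
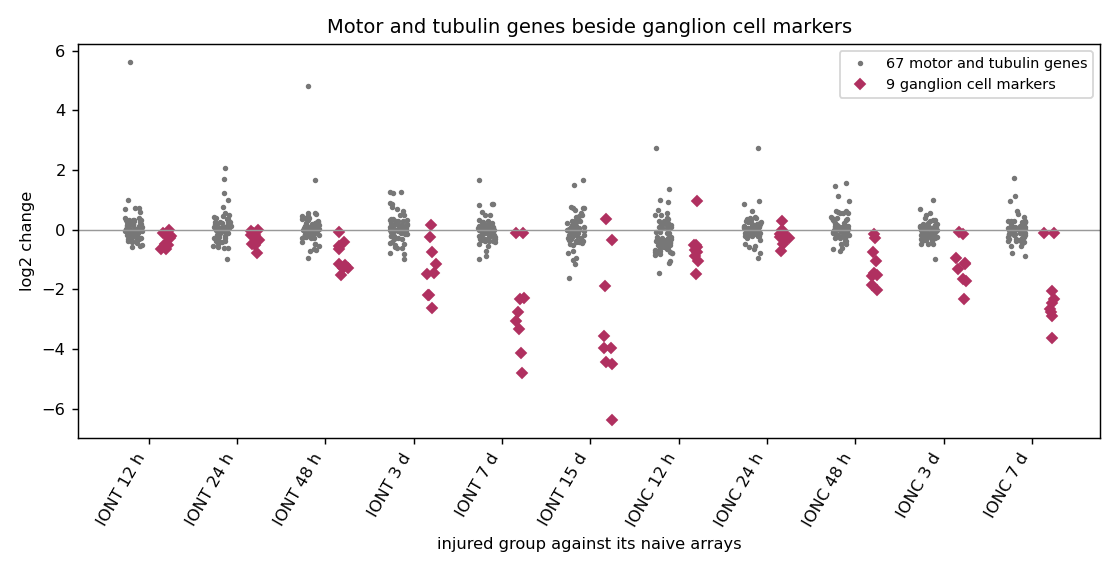
Log2 change of the 67 motor and tubulin genes (grey points) and of 9 ganglion cell markers (red diamonds) in each injured group against its naïve arrays. Some markers fall below the field of members from 48 h. The 7 called lower at IONT 7 d, IONT 15 d and IONC 7 d all do so there, to -6.38 for Slc17a6 at IONT 15 d. Pou4f1 and Isl1 stay within the field, and the grey points high above at IONT 12 h and 48 h are Kif11.

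Genes that work on the same microtubules were counted by list. Of 26 measured genes whose products bind microtubule ends or walls, 2 were called higher and 1 lower in at least 1 injured group. The strongest was Dclk1, a kinase that binds microtubules through doublecortin domains. It read 7.93, 7.96 and 8.04 in naïve, 11.94, 11.63 and 11.72 at IONT 12 h and 11.89, 10.28 and 11.85 at IONC 12 h, with no overlap. Its changes were 3.79 (SE 0.38, limma adjusted p = 1e-06) and 3.37 (adjusted p = 2.65e-06), and it was also called at 48 h and 7 d after IONT and at 24 h, 48 h and 7 d after IONC, by 2.21 to 3.20. Map7, a recruiter of kinesin-1, was higher at IONT 12 h by 0.64. Camsap1, which caps minus ends, was lower at IONT 48 h (-1.40), IONC 12 h (-1.69) and IONC 48 h (-0.98).

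Of 14 measured genes for tubulin modification and severing, 1 was called higher and 1 lower. Agtpbp1, a carboxypeptidase that trims glutamate chains from tubulin, read 10.41, 10.33 and 10.55 in naïve and 11.91, 11.92 and 11.75 at IONT 12 h. Its change there was 1.43 (SE 0.22, limma adjusted p = 0.000255), and it was also called at IONT 48 h (1.31), IONC 12 h (0.97) and IONC 24 h (1.08). Ttll5, an enzyme that adds glutamate chains, was lower at IONC 12 h by a change of -2.25, and of -1.26 without replicate 2, called both ways.

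Among 11 tubulin chaperones, Tbcc, a cofactor in folding tubulin pairs, was the 1 called, and it was lower. Its changes were -0.97 at IONT 48 h, -1.14 at IONC 12 h, -0.81 at IONC 24 h and -0.91 at IONC 48 h. Among 26 adaptors and regulators of motors, 4 were called, all lower. These were the dynein adaptors Hook1 (-1.03 at IONC 12 h) and Hook3 (-1.66 at IONC 24 h), and the mitochondrial anchors Rhot1 (-1.02 at IONC 12 h) and Rhot2 (-1.30 at IONC 12 h). Without IONC 12 h replicate 2 the IONC 12 h changes were -0.74 for Hook1, -0.68 for Rhot1, -1.08 for Rhot2, -0.87 for Tbcc, -1.41 for Camsap1, 1.33 for Agtpbp1 and 3.89 for Dclk1, all still called. The list counts are over all 11 injured groups, in at least 1 of which 9.04% of all genes were called. At IONC 12 h 4% of all genes were called lower, and the shares for the other groups are given above.

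Promoter windows of Kif11, Kif22 and Kif3b are shown because these genes carry the main changes. Of the 67 genes, 58 had a RefSeq promoter of assembly GRCr8, from 250 bases before to 50 after the start. Both strands were searched for the AP-1 motif TGANTCA, the CRE motif TGACGTCA and its core TGACG, which the full CRE contains, the CCAAT box, and the cell cycle element CHR, TTTGAA. The windows below are written 5′ to 3′ on the gene's strand with the match in capitals, where ATTGG and TTCAAA are matches on the other strand.
Kif11, CCAAT box, chr1:244536795-244536822, plus strand: gccgctctgccATTGGccccgcaagtcg
Kif11, CRE core, chr1:244536753-244536780, plus strand: gtgacccacgtTGACGacacggggtccc
Kif22, CCAAT box, chr1:191080915-191080942, minus strand: aagtagccgtgATTGGtcgaatttgaga
Kif22, CHR, chr1:191080878-191080905, minus strand: gaccccggcaaTTCAAAagagagaagcg
Kif3b, CCAAT box, chr3:162218595-162218622, plus strand: acttcagaggcCCAATaaagttattgaa
Kif3b, CRE core, chr3:162218614-162218641, plus strand: gttattgaaatTGACGcggttgctaagg

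The CCAAT box was in 26 of the 58 promoters (44.8%) and 37.5% of all 33469 promoters, the CRE core in 22 (37.9%) against 21.2%, and the full CRE in 5 (8.62%) against 1.83%. AP-1 was in 3 (5.17%) against 7.33%, and CHR in 10 (17.2%) against 18.3%. The full CRE was in Kif15, Kif18a, Kif5c, Klc1 and Tubb2a, none of them called. Kif11 and Kif3b, which moved in opposite directions, both held a CCAAT box and a CRE core, and the Map1b promoter held none of the motifs. Kif20a held 3 CCAAT boxes and Kif22 a second one, at -231 from the start, not printed here. A match describes letters only, and binding was not measured.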

How the data were processed

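The authors extracted total RNA with Trizol, labelled it by the standard Affymetrix protocol and hybridized 35 RAE230.2 arrays. The deposited values are log2 signals per probe set, which the submitters' processing notes credit to GCRMA, with limma also named. GCRMA corrects background, normalizes by quantiles and summarizes probes, and it leaves a floor near which changes are compressed. Neither the versions used by the authors nor the set of arrays normalized as one is given in the sources used here. Arrays have no read depth, and their number limits the precision.

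The values were used as deposited. A total of 57 control probe sets were left out and 31042 were tested. The platform annotation gave 1 symbol to 20826, several to 436 and none to 9780. All 67 members matched the RefSeq gene table by gene number. Per gene, the probe set with the highest mean over 35 arrays was used. Levels of different probe sets are not comparable.

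A linear model with 13 group means (11 injured groups and the naïve arrays of each array set) was fitted with limma 3.58.1 in R 4.3.3, with 22 residual degrees of freedom. Each of 17 comparisons was adjusted by Benjamini-Hochberg over all probe sets. Calls needed an adjusted p under 0.01, B above 0 and 1.2-fold, after the thresholds in the study's methods. Intervals are 95% and per gene. The procedure was tested on simulated data. The replicates are separate pools of 4 retinas.

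The text names members called in an injured group, a fixed list of neuronal motor, tubulin and MAP genes whatever their result, mitotic kinesins with the largest changes, and up to 3 genes of each partner list with the largest called change. Other names were taken after their values were seen. Of the fixed list, Kif17, Kif21b, Dynll1 and Tuba1a had no probe set with a single symbol. The members, array sets and lists were chosen with earlier results of these data known. Alternatives were other naïve references, thresholds, filters, variance models, scalings, probe set means, a replicate block and leaving out each array.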

Additional observations from a re-analysis of the deposited data

Results flagged for a closer look

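For 5 of 30 named genes, 1 naïve array lay far from the other 4 (Dixon's criterion), and chance alone gives about 1 in 20 such groups. Klc1 read 12.33 on naïve replicate 5 against 12.09 to 12.15 on the others, and Kif18a read 5.53 on naïve replicate 4 against 4.87 to 4.99. The other 3 genes were near the floor of the signal. Kif20a read 2.63 on naïve replicate 5 (others 2.35 to 2.38), Kif14 read 2.36 on naïve replicate 5 (others 2.25 to 2.27), and Kif1b read 2.08 on naïve replicate 1 (others 2.06). The 5 naïve arrays span both array sets, and 4 of these far values were on the arrays of the second. The lesions differed past the threshold in Kif3b at 12 h, with IONC minus IONT of -1.26 (limma adjusted p = 5.22e-05), and a second probe set of Kif3b gave -2.16 (adjusted p = 0.00676), which was -1.42 and not called without IONC 12 h replicate 2 (adjusted p = 0.0466).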

How the results depend on the processing

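Over 47 alternatives, 0 of 15959 recomputed gene values changed sign while called, 56 lost a call and 96 gained one. Most of these values were not called in the main fit and so had no call to lose. The losses were 21 of 45 for Kif3b at IONC 48 h, 8 of 45 for Kif3b at IONC 24 h and 5 of 45 for Kif22 at IONT 48 h. Map1b lost 17 of 45 for IONT 7 d minus 12 h and 3 of 45 at IONT 12 h. Kif11 lost 2 of 45 for IONT 7 d minus 12 h. Kif11 at IONT 12 h and 48 h and Kif3b at IONT 48 h, at IONC 12 h and between the lesions at 12 h kept their calls in all 45 alternatives that gave them a value. Of the alternatives, 35 left out 1 array each, mostly from a group outside the comparison. Such an omission leaves the change as it was and alters only the shared spread, so it tests the call little. Counts of members called that moved by over 1.5 times follow, and the cause was not tested. Against all 5 naïve arrays they were 1 at IONT 12 h, 3 at 24 h, 2 at 3 d, 1 at 7 d and 2 at 15 d, 2 at each of IONC 12 h, 24 h and 48 h, and 1 for IONT 7 d minus 12 h. At an adjusted p under 0.05 without B they were 2 at IONT 24 h and 15 d, 9 at IONC 12 h, 2 at IONC 24 h and 48 h, 7 and 1 for IONC minus IONT at 12 h and 48 h, and 1 for IONT 15 d minus 24 h. With dim probe sets filtered they were 0 at IONT 3 d, 2 for IONC minus IONT at 12 h and 1 for IONT 7 d minus 12 h, and with a variance trend and robust moderation 0 at IONC 48 h. With array weights, whose estimate stopped before full convergence, they were 7, 5, 7, 11 and 3 at IONT 12 h, 24 h, 48 h, 7 d and 15 d, 17, 7, 6 and 6 at IONC 12 h, 24 h, 48 h and 7 d, 11, 3 and 4 for IONC minus IONT, and 11, 5 and 4 for the comparisons over time. With arrays centred on their medians they were 3 at IONT 15 d, 0 at IONC 24 h and 48 h, 2 for IONC minus IONT at 12 h and 1 for IONT 7 d minus 12 h. With cyclic loess they were 3, 5, 2 and 3 at IONT 24 h, 48 h, 3 d and 15 d, 3 and 2 at IONC 12 h and 24 h, 1 for IONC minus IONT at 48 h, 4 for IONT 7 d minus 12 h and 5 for IONT 15 d minus 24 h. With probe sets averaged per gene they were 1 at IONT 12 h and 15 d, 7 at IONC 12 h, 3 and 1 for IONC minus IONT at 12 h and 48 h, and 1 for both comparisons over time after IONT.

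Centring shifted the median of all genes by -0.13, -0.15 and -0.21 at IONT 24 h, 3 d and 15 d, and the share of higher calls among all genes at IONT 15 d went from 79.8% to 11.9%. Cyclic loess shifted it by 0.32 at IONC 12 h, where that share went from 23.5% to 52.1%.

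Replicate numbers gave no clear pairing of the arrays. Over 108 pairs of the first set with the same number, deviations from group means correlated with a median of 0.02 (-0.39 to 0.34), against -0.01 for other pairs. Of 27 arrays, 14 correlated best with their own number, a count that was not tested against chance. With a replicate block in the first set the counts were 2 at IONC 12 h, 0 at IONC 24 h and 48 h, and 1 for IONT 7 d minus 12 h. With that set alone and no block, an alternative chosen after seeing the data, they were 2 at IONC 12 h, 0 at IONC 48 h and 1 for IONT 7 d minus 12 h. In the second set the naïve arrays share no number with the others, so that only IONT 15 d minus 24 h could be blocked. Over the 6 IONT arrays of that set, also chosen after seeing the data, it gave 0 members with the replicate block and 0 without it, on 2 and 3 residual degrees of freedom.

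Leaving out each array in turn gave 1 to 3 members at IONT 12 h, 0 to 4 at 24 h, 2 to 5 at 48 h, 1 to 2 at 3 d, 0 to 3 at 7 d and 0 to 4 at 15 d. For IONC it gave 1 to 6 at 12 h, 0 to 4 at 24 h, 0 to 2 at 48 h, 0 to 1 at 3 d and 0 to 3 at 7 d. IONC minus IONT gave 1 to 8 at 12 h, most without IONC 12 h replicate 3, 0 to 2 at 48 h and 0 at 7 d. The comparisons over time gave 0 to 5 for IONT 7 d minus 12 h, 0 to 7 for IONT 15 d minus 24 h and 0 for IONC 7 d minus 24 h. Most of the highest counts came without IONC 12 h replicate 2.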
